A study of Oryza sativa Japonica Group with 15 samples.

Results

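The interior arms of chromosomes 1, 2 and 3 are the parts of the longest rice chromosomes that lie more than 2 Mb from the centromere and more than 2 Mb from both chromosome ends. They were chosen by position alone, with centromeres at 16.7 Mb on chromosome 1, 13.6 Mb on chromosome 2 and 19.4 Mb on chromosome 3. The rule gave 9144 of the 37272 bins of 10 kb in the genome, which is 24.5% of the bins, or 91.44 Mb of 372.648 Mb. They form 6 arms: chromosome 1 left (chr1:2000001-14700000, 12.7 Mb) and right (chr1:18700001-41220000, 22.52 Mb), chromosome 2 left (chr2:2000001-11600000, 9.6 Mb) and right (chr2:15600001-33840000, 18.24 Mb), and chromosome 3 left (chr3:2000001-17400000, 15.4 Mb) and right (chr3:21400001-34380000, 12.98 Mb). The interior arms of chromosomes 4 to 12, chosen with the same margins, hold 50% of the bins. Positions are on the build of the deposited files, which is not given in the sources used here, and gene annotation of these regions was not used here.

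In the interphase nucleus each chromosome occupies a territory of its own, so most chromatin contacts are made within a chromosome and become rarer as the distance along the DNA grows. Plant chromosomes can keep a polarised arrangement after cell division, known as the Rabl configuration, in which centromeres lie at one side of the nucleus and chromosome ends at the other. The long arms between these landmarks carry much of the euchromatin and of the genes, and contacts between the arms of 1 chromosome, or between arms of different chromosomes, show how territories fold and touch.

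Single-cell Hi-C, which joins DNA ends that lay close together in a fixed nucleus and sequences the junctions, was applied to cells of Oryza sativa Japonica Group, cultivar Dongjin. The cells were 4 eggs isolated from florets without pollination, 4 sperm from stamens, 3 unicellular zygotes collected 6 to 8 hours after pollination and 4 shoot cells of seedlings 12 days after germination. Every cell was fixed with formaldehyde, cut with DpnII, ligated and amplified as a whole genome by multiple displacement, so all 15 libraries share these treatments. Since the plant, floret or seedling of a cell is not named in the labels, a group is 1 sample here and groups were not tested against each other. The design text counts 2 shoot cells although 4 are listed, so results that turn on shoot cells 3 and 4 are also given without them. DNA contacts hold no expression, so the cell labels could not be checked against markers.

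The libraries were shallow. They held 2236 to 17291 read pairs and 761 to 4576 contacts, a contact being 1 pair of restriction fragments seen at least once in that cell. Of these, 130 to 558 were far contacts, which joined different chromosomes (trans) or lay at least 20 kb apart on 1 chromosome (cis). The interior arms of chromosomes 1 to 3 received 63 to 241 far contact ends per cell, with a median of 171, and between 0.328% and 1.24% of their bins held any. Exact 95% intervals below cover counting error only, since amplified read pairs carry no molecular identifiers and both ends of a contact are counted.

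Some far contacts recurred between libraries, which bears on every value that follows. Of the 2044 distinct fragment pairs with a far contact and an end in the interior arms, 85 were found in at least 2 cells, or 4.16%, beside 3.88% of all far fragment pairs in the genome. The share for the arms was therefore near that of the genome. Of the 85, 74 occurred in more than 1 group, 35 in at least 3 cells and 14 in at least 4 cells, and none had identical read positions at both ends in different cells. Cells of different groups shared such a pair in 55 of 84 combinations of 2 cells, and cells of the same group in 10 of 21. What these recurring pairs come from was not tested. With them left out, an alternative chosen after seeing the data, the 7 summary measures of each group stayed within the spread between cells or the counting interval. The share of far contact ends in the arms was then 20.7% in the eggs, 20.7% in the sperm, 27.4% in the zygotes and 27.0% in the shoot cells, against 20.7%, 20.7%, 27.5% and 26.6% with all contacts.

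The most widespread fragment pairs joined fixed places on the right arm of chromosome 1 and the left arm of chromosome 3 to other chromosomes. The fragment chr1:39111609-39112013 was joined to chr12:13419112-13419328 in 7 cells (eggs 1, 2 and 4, zygotes 1 and 3, shoot cells 1 and 2), with 128 read pairs in all. The fragment chr3:13642987-13644052 was joined to chr10:12888746-12889461 in 7 cells of all 4 groups, with 47 read pairs. Chromosome 12 was the partner in 43 of the 77 recurring trans pairs (55.8%), and in 358 of all 1810 distinct trans pairs of these arms (19.8%). Most of these 43 pairs had their chromosome 12 end in 1 short stretch, between chr12:13344623 and chr12:13419544, so the share describes that stretch more than the whole chromosome. The right arm of chromosome 1 held 41.8% of the ends of recurring pairs, beside 31.3% of all interior far ends and 24.6% of the interior length. The right arm of chromosome 3 held 24.5% of the ends of recurring pairs, beside 13.5% of the far ends and 14.2% of the length.

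Recurring pairs within a chromosome were few but spanned long distances. Of 53 distinct fragment pairs that crossed the centromere between interior arms, 6 were found in at least 2 cells (11.3%), and so was 1 of the 56 pairs over 2 Mb within an arm. The share of crossing pairs on other chromosomes is not given here. The 6 were not all separate places, since chr3:13647000-13647851 met both chr3:33247727-33248179 and the nearby chr3:33248215-33248363. The fragment chr3:11666744-11667013 met chr3:33247727-33248179, 21.6 Mb away, in eggs 1, 2 and 4, sperm 3 and shoot cell 2. The fragment chr3:13642987-13644052 met chr3:31810608-31810928, 18.2 Mb away, in sperm 3, all 3 zygotes and shoot cell 1. Both pairs join the left and the right arm of chromosome 3. On chromosome 1, fragments 31.6 Mb apart (chr1:2803918-2804252 and chr1:34372882-34373577) met in egg 4 and sperm 1, and fragments 31.9 Mb apart (chr1:7228712-7229974 and chr1:39125486-39126676) in zygote 2 and shoot cell 3.

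Cells differed widely in how much of their contacts recurred. The share of far contacts with an interior-arm end whose fragment pair occurred in another cell was 16.3%, 10.8%, 0.556% and 26.5% in eggs 1 to 4. It was 3.18%, 10.0%, 5.95% and 11.5% in sperm 1 to 4 and 23.4%, 16.9% and 15.3% in zygotes 1 to 3. It was 6.90%, 13%, 1.12% and 2.16% in shoot cells 1 to 4. The zygotes were all above the sperm and the shoot cells, and the eggs ranged from the lowest to the highest value of all 15 cells. The group means of 13.6% ± 10.8 (SD, n = 4) in the eggs, 7.67% ± 3.81 (n = 4) in the sperm, 18.5% ± 4.25 (n = 3) in the zygotes and 5.79% ± 5.41 (n = 4) in the shoot cells stood beside 13%, 6.58%, 16.5% and 8.38% for far contacts with no end in these arms.

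**Figure D1:**
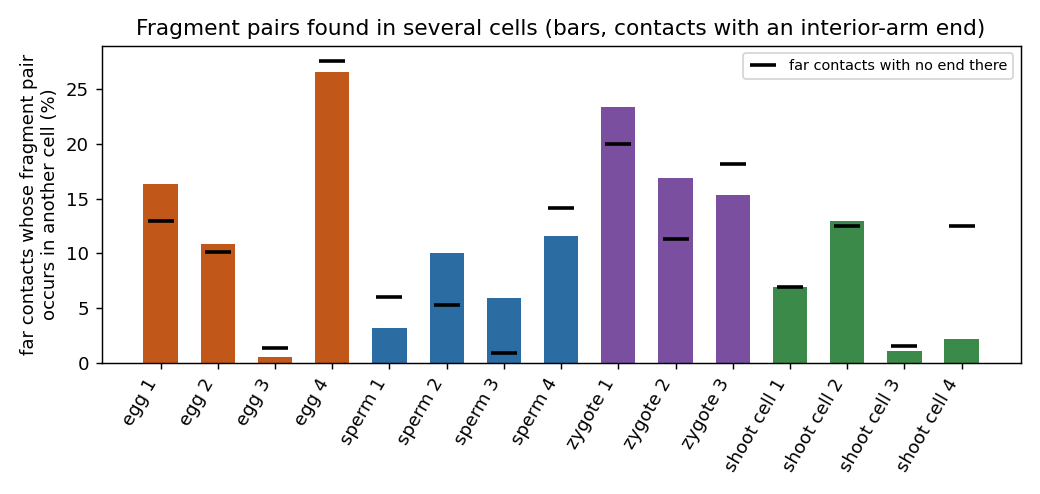
Share of far contacts whose fragment pair occurred in at least 1 other cell (y axis, %), by cell (x axis). Bars stand for contacts with an end in the interior arms of chromosomes 1 to 3 and black lines for the other far contacts of the same cell. Egg 3 (0.556%) and egg 4 (26.5%) hold the lowest and the highest bar, and in most cells the line lies close to the bar.

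The amount of contact on the interior arms, taken as the share of all far contact ends in a cell, was near the 24.5% share of the bins in shoot cells 1 to 3 and below it in every egg. It was 20.2%, 22.8%, 18.6% and 21.3% in eggs 1 to 4 and 24.0%, 19.7%, 15.1% and 24.2% in sperm 1 to 4. The zygotes had 28.8%, 18.8% and 34.8%, and the shoot cells 24.7%, 23.2%, 24.2% and 34.4%. The highest values were those of zygote 3 (exact binomial interval 31.2% to 38.5%) and shoot cell 4 (30.1% to 38.8%), and the lowest that of sperm 3 (12.4% to 18.2%). The intervals of these 3 cells, and of eggs 1, 3 and 4, sperm 2, zygote 1 and zygote 2, did not include 24.5%. Group means were 20.7% ± 1.77 in the eggs, 20.7% ± 4.30 in the sperm, 27.5% ± 8.07 in the zygotes and 26.6% ± 5.19 in the shoot cells, and the cells of zygotes and shoot cells overlapped those of eggs or sperm.

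The density of all contact ends, short contacts included, was again higher on average in the zygotes and shoot cells than in the eggs and sperm. Relative to the rest of the genome of the same cell, ends per Mb in the interior arms were 0.889 ± 0.126 (SD, n = 4) in the eggs, 0.885 ± 0.185 (n = 4) in the sperm, 1.10 ± 0.126 (n = 3) in the zygotes and 1.31 ± 0.344 (n = 4) in the shoot cells. Eggs ranged from 0.756 to 1.06, sperm from 0.660 to 1.09, zygotes from 0.957 to 1.19 and shoot cells from 0.992 to 1.80, so that 7 of 15 cells lay above 1 and every group overlapped another. Without shoot cells 3 and 4 the mean of shoot cells was 1.09. Set against the interior arms of chromosomes 4 to 12, the arms of chromosomes 1 to 3 held 0.888, 0.933, 1.06 and 1.31 times the ends per Mb in the eggs, sperm, zygotes and shoot cells. For the short chromosomes 11 and 12, the same density of the interior over the rest of the genome was 1.68 ± 0.494 in the eggs, 1.09 ± 0.328 in the sperm, 1.58 ± 0.343 in the zygotes and 0.923 ± 0.255 in the shoot cells.

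**Figure D2:**
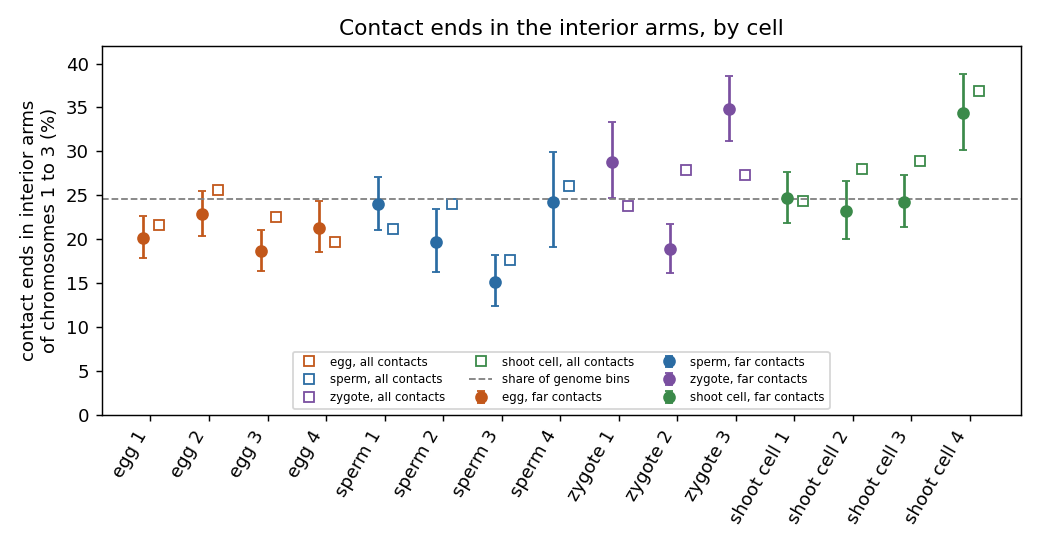
Share of contact ends that fell in the interior arms of chromosomes 1 to 3 (y axis, %), by cell (x axis). Filled circles are far contact ends with exact 95% intervals for counting error, open squares are ends of all contacts, and the dashed line is the share of genome bins (24.5%). Shoot cell 4 and zygote 3 stand highest for far contacts (34.4% and 34.8%), sperm 3 lowest (15.1%).

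The 6 arms did not share this coverage evenly. Far ends per Mb, relative to the genome mean of the cell and averaged over all 15 cells, were 1.22 on the right arm of chromosome 1, the longest, and 0.729 on its left arm. They were 0.738 and 1.03 on the left and right arms of chromosome 2, and 0.892 and 0.913 on those of chromosome 3. The right arm of chromosome 1 was above 1 in 10 of 15 cells, whereas the right arm of chromosome 2 was above 1 in 2 of 15 cells and owed its mean to them.

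Single cells accounted for the extremes. Zygote 3 had 3.07 times the genome mean on the right arm of chromosome 1, from 123 far ends, whereas zygotes 1 and 2 had 1.16 and 1.05. Shoot cell 4 had 4.37 times the genome mean on the right arm of chromosome 2 (104 far ends) and 2.00 times on the left arm (25 far ends), against 0.958, 0.633 and 0.593 on the right arm in shoot cells 1, 2 and 3. The same cell was above the other shoot cells on both arms for ends of all contacts as well, at 3.61 and 3.02. More sequenced DNA from chromosome 2 and more contacts per copy of it cannot be told apart in these data. Zygote 1 had 2.07 on the right arm of chromosome 2, and egg 3 had 1.29 on its left arm where the other eggs had 0.331 to 0.393. Sperm 3 had a single far end on the left arm of chromosome 1, or 0.0472 times the genome mean.

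**Figure D3:**
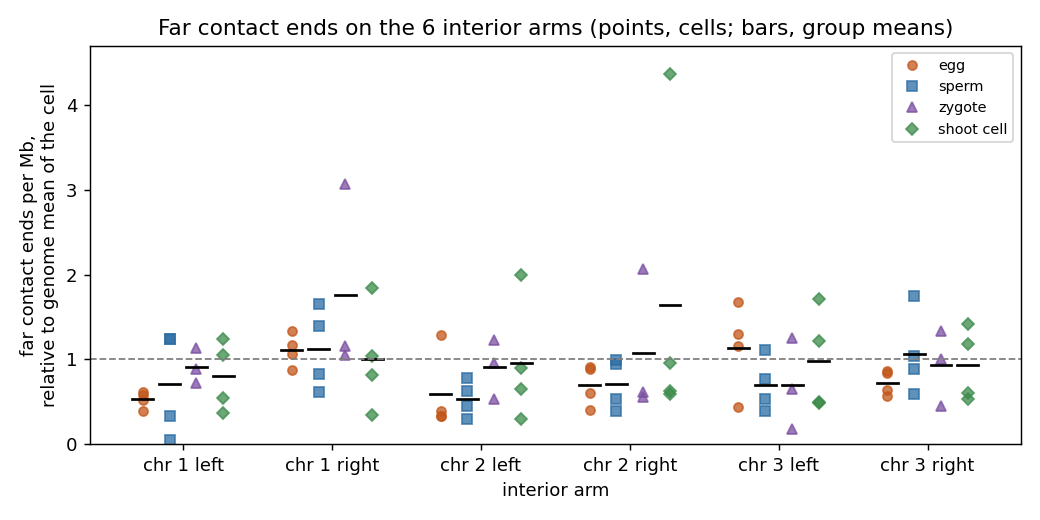
Far contact ends per Mb relative to the genome mean of the same cell (y axis, ratio) on each of the 6 interior arms (x axis). Points are cells, black bars group means, and the dashed line marks the genome mean. Shoot cell 4 lies at 4.37 on the right arm of chromosome 2 and zygote 3 at 3.07 on the right arm of chromosome 1, apart from the other cells of their groups.

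Along the arms, far ends gathered in a few places. Among 87 whole windows of 1 Mb, the median total over all cells was 21 far ends, and the fullest window, 33 to 34 Mb on chromosome 1, held 221 and was hit in all 15 cells. It took 2.10% of the far ends of a cell on average, where an average Mb of the genome took 0.268%, and 67 of its ends came from zygote 3, in which it held 10.1% of all far ends. The window at 39 to 40 Mb on chromosome 1 held 119 far ends from 14 cells and the one at 16 to 17 Mb on chromosome 2 held 77 from 12 cells, 43 of them in zygote 1. These 3 windows together held 16.9% of the 2463 far ends counted in windows. The emptiest windows by mean share were 19 to 20 Mb on chromosome 1 (6 far ends), 5 to 6 Mb on chromosome 1 (6 far ends) and 29 to 30 Mb on chromosome 3 (8 far ends). With the fullest window left out, an alternative chosen after seeing the data, the zygotes' mean share of far ends was 24.1% in place of 27.5%. That window held 84 far ends from eggs, 19 from sperm, 88 from zygotes and 30 from shoot cells. The 24.1% is therefore not to be set against the full shares of the other groups.

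At 10 kb, 24 interior bins (0.262%) held far contact ends in at least 5 of the 15 cells, beside 0.255% of all bins in the genome, so the arms held about as many such recurrent bins as their size gives. Of these, 12 lay on the right arm of chromosome 1. The bins found in the most cells were chr1:33530001-33540000 (12 cells, 60 far ends, 58 of them trans) and chr3:13640001-13650000 (12 cells, 52 far ends, 39 trans). Next came chr1:39110001-39120000 (10 cells, 48 far ends), chr1:39120001-39130000 (9 cells, 42 far ends), chr1:33580001-33590000 (9 cells, 29 far ends) and chr1:33540001-33550000 (7 cells, 33 far ends). The bins chr1:28380001-28390000 and chr1:34370001-34380000 followed with 7 cells each, the first through 1 restriction fragment. The last of the 10 by the ranking were chr1:33520001-33530000 and chr2:6170001-6180000, each in 6 cells. Of their far ends, 36 of 60 came from zygote 3 in the first and 13 of 21 from egg 3 in the second. Recurrent bins held 31.0% ± 19.9 (SD, n = 4) of interior-arm far ends in the eggs, 12.7% ± 3.64 (n = 4) in the sperm, 36.1% ± 10.1 (n = 3) in the zygotes and 10.5% ± 13.1 (n = 4) in the shoot cells, against 35.9%, 14.5%, 48.9% and 14.7% in the rest of the genome. The mean of the shoot cells rested on shoot cell 2, with 29.3% where shoot cells 1, 3 and 4 had 9.50%, 0.957% and 2.40%. It was 4.28% without shoot cell 2 and 19.4% without shoot cells 3 and 4.

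Part of this concentration came from single restriction fragments with many partners. In zygote 3, the fragment chr1:33519692-33521857 had 36 far partners, 27 of them on other chromosomes, which was 15.6% of the interior-arm far ends of that cell. In egg 2, chr3:5780838-5782763 had 35 partners, all trans (14.5% of far ends). Zygote 1 had 23 partners at chr2:16088751-16089694, shoot cell 4 had 21 at chr2:19211785-19212865 and sperm 3 had 18 at chr3:32451718-32452279. The highest number in the other cells was between 5 and 19, and in every cell at least 50% of the contacted fragments had 1 far partner.

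Within the chromosomes, nearly all contacts were short. Of the cis contacts with both ends in the interior arms of a chromosome, 73.2% in the eggs, 71.3% in the sperm, 74.1% in the zygotes and 74.0% in the shoot cells spanned under 1 kb, and 24.1%, 25.5%, 19.8% and 23.7% spanned 1 to 20 kb. The remaining far cis contacts numbered 47 in the eggs, 44 in the sperm, 35 in the zygotes and 51 in the shoot cells, summed over the cells of each group.

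Among those far cis contacts, long ones of over 2 Mb were the larger part in the eggs, zygotes and shoot cells. They made up 82.9% (29 of 35, exact binomial interval 66.4% to 93.4%) in the zygotes, 84.3% (43 of 51, 71.4% to 93.0%) in the shoot cells, 66.0% (31 of 47, 50.7% to 79.1%) in the eggs and 45.5% (20 of 44, 30.4% to 61.2%) in the sperm. These intervals treat the contacts as independent, so they do not compare the groups. In zygote 3, for example, 9 of the 16 long contacts ended on 1 fragment. By cell, 7 of 11, 5 of 11, 11 of 15 and 8 of 10 far cis contacts were long in eggs 1 to 4, and 9 of 21, 4 of 8, 4 of 7 and 3 of 8 in sperm 1 to 4. They were 9 of 10, 4 of 9 and 16 of 16 in zygotes 1 to 3, and 9 of 9, 11 of 15, 10 of 11 and 13 of 16 in shoot cells 1 to 4. All 4 shoot cells were thus above all 4 sperm, while zygote 2 lay within the range of the sperm. In the interior arms of chromosomes 4 to 12, which are on average shorter, the shares were 46.2%, 21.7%, 34.0% and 29.3% in the eggs, sperm, zygotes and shoot cells.

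Contacts within an arm were also counted per possible pair of 10 kb bins in classes of separation. These densities are not scaled for library depth, so their differences between groups also hold differences in depth. The mean number of far contacts per cell was 507.5 in the eggs, 270 in the sperm, 318 in the zygotes and 361 in the shoot cells. Arm length still enters within a class: of the possible pairs at 2 to 10 Mb, 33.1% were at 2 to 4 Mb in the arms of chromosomes 1 to 3 and 38.2% in those of chromosomes 4 to 12. On this scale, contacts of the same arm at 2 to 10 Mb numbered 1.30 per cell and 1000000 pairs in the shoot cells (exact Poisson interval 0.821 to 1.94), 0.751 in the zygotes (0.360 to 1.38), 0.563 in the sperm (0.270 to 1.04) and 0.113 in the eggs (0.0136 to 0.407). The corresponding densities in the arms of chromosomes 4 to 12 were 0.634 in the shoot cells (0.376 to 1.00), 0.329 in the zygotes (0.132 to 0.678), 0.388 in the sperm and 1.16 in the eggs (0.800 to 1.63). The intervals of the eggs did not overlap, but chromosomes 11 and 12 gave 21 of the 33 egg contacts in the shorter chromosomes. With chromosomes 11 and 12 left out, an alternative chosen after seeing the data, the egg density in chromosomes 4 to 10 was 0.524 (0.271 to 0.915), whose interval overlapped that of chromosomes 1 to 3. Both egg contacts in chromosomes 1 to 3 came from egg 2, so the density without that cell was 0, with a bound of 0.277. Shoot cells had the higher value in the arms of chromosomes 1 to 3, with intervals that overlapped. The density in the shoot cells rested in part on shoot cell 4, which gave 10 of the 23 contacts, and it was 0.845 when contacts in the same pair of 10 kb bins were merged within a cell. Without shoot cells 3 and 4 it was 1.01 against 0.987 in chromosomes 4 to 12. The zygotes had 0.0705 in chromosomes 4 to 12 without zygote 2, which gave 6 of their 7 contacts there.

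At 20 to 200 kb the shoot cells had fewer contacts in the arms of chromosomes 1 to 3. They had 7.65 contacts per cell and 1000000 pairs (2.48 to 17.8) against 51.2 (39.7 to 64.9) in the arms of chromosomes 4 to 12 and 51.9 (39.0 to 67.7) in those of chromosomes 4 to 10, with intervals that did not overlap. After merging within 10 kb bin pairs, the shoot values were 6.12, 27.1 and 24.0, and without shoot cells 3 and 4 the unmerged values were 9.18 against 73.7 in chromosomes 4 to 12. In the other groups the comparison turned on chromosomes 11 and 12. Eggs had 10.7 (4.30 to 22.1) against 37.6 (27.9 to 49.6) in chromosomes 4 to 12, of which chromosomes 11 and 12 gave 31 of 50 contacts, and 18.3 (10.997 to 28.5) in chromosomes 4 to 10, so the intervals overlapped once these were left out. Sperm had 19.9 against 22.6 in chromosomes 4 to 12 and 19.2 in chromosomes 4 to 10. Sperm 1 gave 19 of the 30 contacts in chromosomes 4 to 12, and without it the sperm densities were 22.4 and 11.04. Zygotes had 10.2 against 24.1 in chromosomes 4 to 12, where 20 of 24 contacts were on chromosomes 11 and 12, and 5.13 in chromosomes 4 to 10. All 5 zygote contacts in chromosomes 1 to 3 came from zygote 2. The lower value of chromosomes 1 to 3 thus did not hold in sperm and zygotes without chromosomes 11 and 12, nor in sperm without sperm 1. With all chromosomes and cells the intervals overlapped in both groups. They were 10.6 to 34.0 and 15.2 to 32.2 in sperm, and 3.31 to 23.8 and 15.4 to 35.8 in zygotes.

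From 0.2 to 2 Mb the densities were 1.47, 1.80, 0.218 and 0.491 in the eggs, sperm, zygotes and shoot cells against 3.48, 4.39, 1.21 and 1.16 in chromosomes 4 to 12 and 2.11, 2.53, 0.985 and 1.27 in chromosomes 4 to 10. Merging within 10 kb bin pairs brought the eggs to 1.47 against 1.66 and the sperm to 0.982 against 1.82 in chromosomes 4 to 12. Sperm 1 gave 10 of the 11 sperm contacts in chromosomes 1 to 3 and 45 of the 53 in chromosomes 4 to 12. Without it the sperm densities were 0.218 and 0.883.

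**Figure D4:**
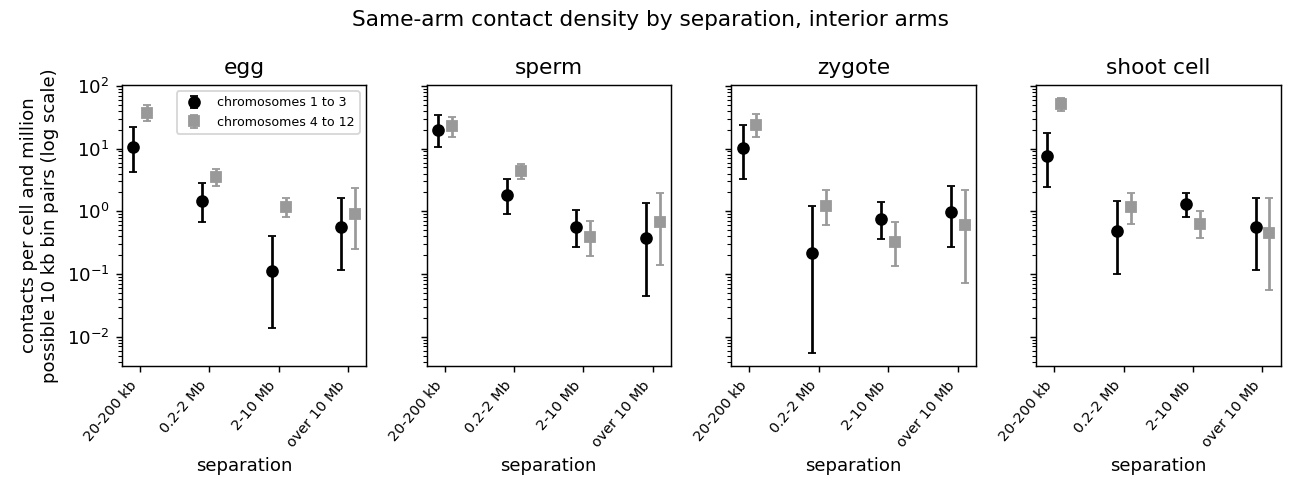
Density of contacts within an interior arm (y axis, contacts per cell and 1000000 possible pairs of 10 kb bins, log scale) by class of separation (x axis), in 4 panels for the cell types. Circles stand for chromosomes 1 to 3, squares for chromosomes 4 to 12, and bars are exact Poisson 95% intervals for counting error. In shoot cells the density of chromosomes 1 to 3 lies below that of chromosomes 4 to 12 at 20 to 200 kb (7.65 and 51.2) and above it at 2 to 10 Mb (1.30 and 0.634).

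The decay slope, the exponent of contact density against separation from 100 kb to 5 Mb, could be fitted on few contacts. It was -1.27 (SE 0.253, 14 contacts) in the eggs, -0.586 (SE 0.202, 22 contacts) in the sperm and -0.474 (SE 0.369, 7 contacts) in the zygotes. In shoot cells the slope was positive, at 1.57 (SE 0.695, 15 contacts), since no contact within an arm fell between 100 kb and 1360 kb. The arms of chromosomes 4 to 12 gave -0.657, -1.04, -1.37 and -0.850 in the eggs, sperm, zygotes and shoot cells. Without sperm 1 the sperm slope was 0.188, and without zygote 2 the zygote slope was 1.07, so the sign in these groups rested on 1 cell each.

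Contacts between the left and the right arm of a chromosome made up much of the long contacts in the eggs. Of the far cis contacts, 26 of 47 crossed the centromere in the eggs, 8 of 44 in the sperm, 15 of 35 in the zygotes and 17 of 51 in the shoot cells. Per cell and 1000000 possible bin pairs, eggs had 0.983 contacts across the centromere (0.642 to 1.44), sperm 0.303 (0.131 to 0.596), zygotes 0.756 (0.423 to 1.25) and shoot cells 0.643 (0.375 to 1.03). Contacts of the same arm at over 4 Mb numbered 0.231 in the eggs, 0.231 in the sperm, 0.849 in the zygotes and 0.926 in the shoot cells. The ratio of the same arm to across the centromere was therefore 0.235 in the eggs, 0.765 in the sperm, 1.12 in the zygotes and 1.44 in the shoot cells. All 4 sperm contacts of the same arm came from sperm 1, as did 5 of the 8 across the centromere, so the sperm ratio was 0 without that cell. Zygote 3 gave 8 of the 11 same-arm contacts of the zygotes, and without it the same-arm density was 0.347 and the ratio 0.656. The ratio of the shoot cells was 1.36 without cells 3 and 4, and that of the eggs was 0.1996 to 0.287 with each egg left out in turn. These values do not match separations between both kinds of contact, and the densities are not scaled for library depth. Nor were they merged within 10 kb bin pairs, which leaving out single eggs does not cover. The long contacts of eggs 1 to 4 numbered 7, 5, 11 and 8, in 5, 5, 5 and 7 distinct bin pairs. Part of the egg count across the centromere thus repeats the same places. Sperm 1 to 4 had 9, 4, 4 and 3, in 9, 2, 4 and 1. Zygotes 1 to 3 had 9, 4 and 16, in 7, 4 and 14. Shoot cells 1 to 4 had 9, 11, 10 and 13, in 7, 9, 9 and 9. Divided by the density of trans contacts among the interior arms of chromosomes 1 to 3, the density across the centromere was 1.91 in the eggs and 1.34 in the sperm. It was 1.46 in the zygotes and 1.58 in the shoot cells.

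When separations were matched, the interval of each group included the expected value, but an excess in the eggs could hardly have shown. Only contacts at separations where both kinds of pair exist were used. They numbered 14 in the eggs, 8 in the sperm, 21 in the zygotes and 21 in the shoot cells. Crossing contacts cannot outnumber these totals, a bound that the Poisson intervals leave out. In the eggs 10 crossed the centromere against 11.3 expected from the share of possible bin pairs (ratio 0.881, exact Poisson interval 0.423 to 1.62). Sperm had 4 against 2.76 (1.45, 0.395 to 3.71), zygotes 10 against 9.63 (1.04, 0.498 to 1.91) and shoot cells 5 against 6.44 (0.777, 0.252 to 1.81). The count in the eggs came from 1 cell: egg 3 gave 9 of the 10 contacts, 3 after merging within 10 kb bin pairs, and the ratio without it was 0.460. Of the 11 long contacts of egg 3, 8 lay on chromosome 2 and joined fragments between chr2:6173905 and chr2:6176997 to fragments between chr2:23958228 and chr2:23960828.

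In some other cells too, long contacts clustered on 1 chromosome. All 13 long contacts of shoot cell 4 lay on chromosome 2, and 5 of them joined a single pair of 10 kb bins. In zygote 3, 15 of 16 long contacts lay on chromosome 1, and 9 of them ended on the fragment chr1:33519692-33521857 described above. Sperm 2 had all 4 of its long contacts on chromosome 1 and sperm 4 all 3 on chromosome 2.

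Most far contacts of the interior arms were made with other chromosomes. Trans contacts were 90.0% ± 2.91 (SD, n = 4) of the far contacts with an interior-arm end in the eggs, 85.4% ± 2.29 (n = 4) in the sperm, 89.3% ± 2.41 (n = 3) in the zygotes and 87.6% ± 4.09 (n = 4) in the shoot cells. A trans contact has 2 chances to touch the arms of these chromosomes, so the share was also counted over ends, an alternative chosen after seeing the data. It was then 85.6%, 77.9%, 84.0% and 82.1%, beside 81.5%, 75.3%, 82.8% and 79.8% for far ends elsewhere in the genome. The share in the arms was above that of the rest in 10 of 15 cells and below it in 5, with differences from -11.2 percentage points in sperm 4 to 19.6 in sperm 1.

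The partners of these trans contacts were near the numbers that coverage gives in most groups. Trans contacts among the interior arms of chromosomes 1, 2 and 3 were set against the number that the end totals of each chromosome and region would give. Eggs had 57 against 52.8 expected (ratio 1.08, exact Poisson interval 0.817 to 1.40), sperm 25 against 27.4 (0.911, 0.590 to 1.35) and zygotes 43 against 43.1 (0.997, 0.722 to 1.34). Shoot cells had 45 against 58.0 (0.776, 0.566 to 1.04). The shoot cells did not behave alike: cells 1 to 4 had 9, 4, 20 and 12 contacts and ratios of 0.451, 0.418, 1.32 and 0.906, and the ratio without cells 3 and 4 was 0.440.

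Since the expected numbers keep the end totals of the arms, the ratios for the different kinds of partner are tied. More contacts than expected with 1 kind come with fewer elsewhere, and the intervals leave this out. With the interior arms of chromosomes 4 to 12, shoot cells had 369 contacts against 322 expected. The ratio was 1.14 (1.03 to 1.27), above 1 in 4 of 4 cells with a range of 1.04 to 1.21. In zygotes it was 0.928 (0.803 to 1.07), below 1 in 3 of 3 cells with a range of 0.900 to 0.951. Eggs had 0.960 (0.867 to 1.06) and sperm 1.05 (0.914 to 1.21), with cells on both sides of 1. With regions within 2 Mb of any centromere, the ratio was 1.17 in the zygotes (0.975 to 1.40, above 1 in 3 of 3 cells), 1.03 in the eggs, 0.946 in the sperm and 0.840 in the shoot cells (0.673 to 1.04). With the outer 2 Mb of the chromosomes it was 1.09, 0.940, 0.903 and 0.946 in the eggs, sperm, zygotes and shoot cells, with all 4 intervals including 1.

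**Figure D5:**
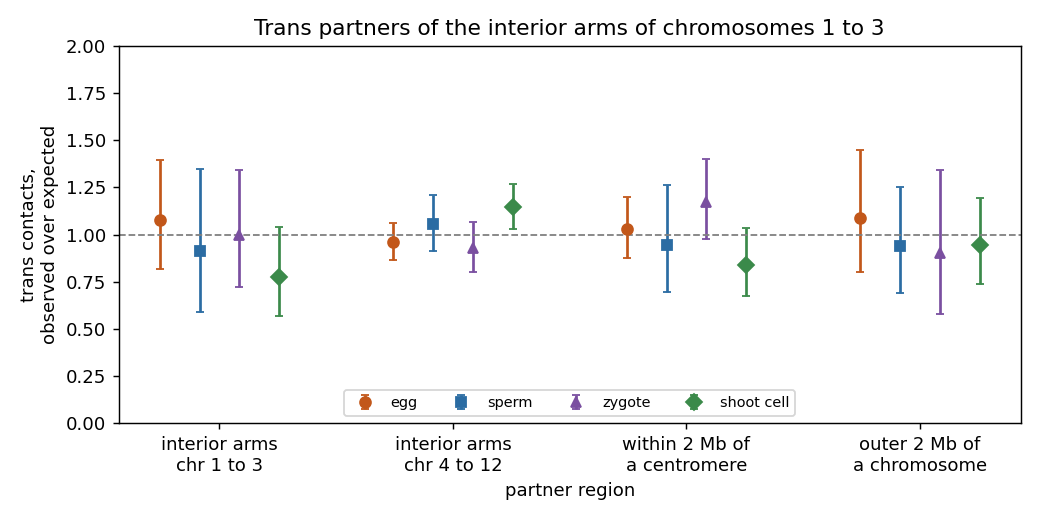
Trans contacts of the interior arms of chromosomes 1 to 3 with 4 kinds of partner region (x axis), as observed over expected contacts (y axis, ratio) summed over the cells of a group. Bars are exact Poisson 95% intervals of the observed count, and the dashed line marks the expected value of 1. The interval excludes 1 for shoot cells with the interior arms of chromosomes 4 to 12 (1.03 to 1.27), the only such case plotted. Among this many 95% intervals, 1 can exclude the expected value through counting error alone, and the ratios of the partner regions are tied.

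Between the arms of different chromosomes themselves, counts pooled over all 15 cells were small. The left arms of chromosomes 1 and 2 made 1 contact against 4.94 expected. The left arm of chromosome 1 and the right arm of chromosome 3 made 13 against 7.35 (ratio 1.77, 0.942 to 3.02), and the right arm of chromosome 2 and the left arm of chromosome 3 made 26 against 18.0 (1.44, 0.943 to 2.12). The right arms of chromosomes 1 and 2 made 23 against 32.4 (0.709, 0.450 to 1.06). For each of the 12 pairs of arms the pooled interval included 1. Within single groups, 2 of the 48 intervals lay above 1 and 0 below it. Among 48 intervals, 2 can exclude 1 through counting error alone. The share for arm pairs of the other chromosomes is not given here, so the 2 are named as a description only. Eggs had 10 contacts between the left arm of chromosome 1 and the right arm of chromosome 2 against 2.11 expected (4.73, 2.27 to 8.70), found in 4 of 4 eggs. Sperm had 6 between the left arm of chromosome 1 and the right arm of chromosome 3 against 1.19 (5.04, 1.85 to 10.97), all from 1 cell.

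Few whole chromosomes were partners above or below expectation in every cell of a group. In eggs, 2 of the 33 combinations of an interior with another chromosome were above 1 in every cell, or 6.06%, beside 5.3% for the interiors of all 12 chromosomes, and 3 were below 1 in every cell (9.09% beside 10.6%). In sperm the shares were 6.06% above beside 7.69% and 12.1% below beside 10.3%. In zygotes, with 25 combinations that had at least 5 expected contacts, they were 12% above beside 9.72% and 12% below beside 12.5%, and in shoot cells 3.03% above beside 3.79% and 15.2% below beside 11.4%. All were near the background of the genome, so the combinations are named as a description only. The ratios named here are the highest and lowest among combinations with at least 5 expected contacts and every cell of the group on the same side of 1. Combinations with cells on both sides of 1 reached further in several groups, such as chromosome 1 with chromosome 10 in sperm (30 against 14.5, 2.07, 1.40 to 2.96, with 25 contacts from sperm 1), chromosome 2 with chromosome 4 in eggs (0.468) and chromosome 3 with chromosome 11 in zygotes (0.469).

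In eggs, the interior of chromosome 1 had 29 contacts with chromosome 10 against 17.5 expected (1.66, 1.11 to 2.38), and that of chromosome 2 had 28 with chromosome 1 against 19.9 (1.41). The lowest ratios in the eggs with every cell below 1 were 0.638 for the interior of chromosome 1 with chromosome 11, 0.668 for chromosome 1 with chromosome 7 and 0.735 for chromosome 3 with chromosome 1. In sperm, the highest with every cell above 1 were 1.61 for the interior of chromosome 3 with chromosome 8 and 1.37 for chromosome 1 with chromosome 12. The lowest with every cell below 1 were 0.436 for chromosome 3 with chromosome 7, 0.561 for chromosome 1 with chromosome 11 and 0.568 for chromosome 2 with chromosome 1. The interior of chromosome 1 with chromosome 11 was below 1 in each egg and each sperm. The intervals included 1 in both groups (0.318 to 1.14 in eggs, 0.257 to 1.07 in sperm). In zygotes and shoot cells this combination had ratios of 0.834 and 1.13, with cells on both sides of 1.

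In zygotes, the interior of chromosome 2 had 15 contacts with chromosome 11 against 7.55 expected (1.99, 1.11 to 3.28). In shoot cells the same combination was among the lowest with every cell below 1, at 8 against 14.3 (0.560, 0.242 to 1.10), a difference that was not tested. Chromosome 1 with chromosome 9 (1.17) and with chromosome 12 (66 against 56.9, 1.16) were the other combinations above 1 in each zygote. The lowest in the zygotes with every cell below 1 were 0.592 for chromosome 1 with chromosome 7, 0.843 for chromosome 1 with chromosome 2 and 0.861 for chromosome 2 with chromosome 1. In shoot cells, the interior of chromosome 3 with chromosome 12 was above expectation (1.33) and with chromosomes 7 and 1 below it (0.512 and 0.652).

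Position within the arm varied among eggs more than between the group means. The part of each interior arm between its midpoint and the centromere held 41.8% ± 19.4 (SD, n = 4) of the far ends in the eggs, 40.1% ± 5.20 (n = 4) in the sperm, 45.1% ± 7.66 (n = 3) in the zygotes and 47.6% ± 9.52 (n = 4) in the shoot cells. Egg 3 had 70.2%, and the other eggs had 26.9% to 36.3%. For all contact ends the values were 45.3%, 45.8%, 49.6% and 44.7%, with eggs between 34.5% and 53.4%.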

How the data were processed

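Single-cell Hi-C contacts were measured in 15 cells. The authors deposited 1 contact list per cell with 15 columns and no header, holding chromosomes, read positions, restriction fragments and strands, which are other values than counts. Neither aligner, contact caller nor build is given in the sources used here. A chain-letter file was not used here. Centromere positions are those known for the rice reference genome, and their fit to the files was not tested. Lines were reduced to distinct fragment pairs at fragment midpoints. Expected trans counts came from iterative proportional fitting that kept the ends of each chromosome region and allowed no chromosome to pair with itself. Decay slopes came from Poisson regression over 6 logarithmic classes of separation, with possible 10 kb bin pairs as offset. Shares carry exact binomial (Clopper-Pearson) and counts exact Poisson 95% intervals. Chromosome pairs were named where every cell lay on the same side of 1 and at least 5 contacts were expected, up to 3 each way in a group. Up to 10 recurrent bins and the 3 fullest and 3 emptiest windows were named. The members and lists were chosen with earlier results of these data known. Alternatives left out isolated contacts, fragments with more than 4 partners, recurrent bins, recurring fragment pairs, the fullest window, chromosomes 11 and 12 or single cells, merged contacts, or changed margins and thresholds. Measures were tested on simulated contacts. The tools were scipy 1.17.1, numpy 2.4.6, statsmodels 0.14.6, pandas 2.3.3 and matplotlib 3.10.9 under Python 3.11.15.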

Additional observations from a re-analysis of the deposited data

Results flagged for a closer look

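Among 42 groups of 4 cells examined, 3 held a cell whose gap to the others, relative to the range, passed Dixon's 95% critical value. Chance gives about 1 in 20, so 3 of 42 is near that rate. Shoot cell 4 had 34.4% of its far contact ends in the interior arms, while the other shoot cells had 23.2% to 24.7%. The same cell had 4.37 times the genome mean on the right arm of chromosome 2, against 0.593 to 0.958 in the others. That arm gave 104 of the 167 interior-arm far ends of shoot cell 4, so these 2 flags overlap. Egg 3 had 1.29 times the genome mean on the left arm of chromosome 2, against 0.331 to 0.393 in the other eggs.

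Trans contacts of the interior arms with those of chromosomes 4 to 12 were above expectation in every shoot cell (1.14 over the group) and below it in every zygote (0.928 over the group). The difference between these groups was not tested.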

How the results depend on the processing

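The 7 summary measures in 4 groups gave 28 results, and 213 of their 245 recomputed values stayed within the spread between cells or the counting interval. The other 32 moved, and the cause was not tested. In eggs, leaving out isolated contacts gave 18.4% for the share of far ends, 86.9% for the trans share and 50% for the long share of far cis contacts. Leaving out fragments with more than 4 partners gave 23.8% of far ends and a trans share of 84.3%, and leaving out recurrent bins gave 22.8% of far ends and a long share of 42.3%. Margins of 1 and 3 Mb gave 24.2% and 18.6% of far ends in eggs, and 3 Mb a ratio across the centromere of 0.311. Counting ends gave trans shares of 85.6%, 77.9%, 84.0% and 82.1% in eggs, sperm, zygotes and shoot cells, and same-arm contacts alone a long share of 23.8% in eggs. In sperm, the trans share was 81.2% without isolated contacts, 79.6% without such fragments, 82.9% without recurrent bins, 81.4% with a 1 Mb margin and 88.9% with far contacts from 50 kb. The sperm long share was 23.3% without isolated contacts and 28.6% with a 1 Mb margin, which also gave 26.9% of far ends and a slope of -1.60. In zygotes, leaving out isolated contacts gave a trans ratio among the arms of 0.685, and leaving out recurrent bins a trans share of 86.6% and a long share of 64.7%. In shoot cells, leaving out isolated contacts gave a trans share of 81.2%, a ratio across the centromere of 0 and a trans ratio of 0.422. Far contacts from 50 kb gave shoot cells a long share of 93.5%, and leaving out shoot cells 3 and 4 a trans ratio of 0.440.

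Leaving out each cell in turn moved the sperm slope between -0.756 and 0.188, the zygote slope between -0.644 and 1.07, the zygote long share between 68.4% and 96.2%, and the egg ratio across the centromere between 0.460 and 0.936. No paired analysis was possible because no test was made and cells of different groups share only a number. Depth limits all of these values: no 10 kb map of a single cell can be read from 30 to 113 bins with far ends, and a slope rests on 7 to 22 contacts.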
